A study of Mus musculus with 4 samples.

Results

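Mucins are glycoproteins whose long serine- and threonine-rich stretches carry dense O-linked sugars. The gel-forming mucins, such as Muc2, Muc5ac, Muc5b and Muc6, are secreted and build the mucus of gut, airway and stomach, whereas the membrane mucins, such as Muc1, Muc3, Muc4, Muc13, Muc15 and Muc20, stay on the surface of epithelial cells as part of the glycocalyx. Both kinds are known from epithelia, and they were followed here in embryonic stem cells (ESCs) after inhibition of class I histone deacetylases, enzymes that remove acetyl groups from histones.

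The 10 mucin genes Muc1, Muc2, Muc3, Muc4, Muc5ac, Muc5b, Muc6, Muc13, Muc15 and Muc20 were taken by symbol from the 28250 genes listed in each library. They were chosen as a family in which Muc3 differed most between treated and control cells, so their MS-275 and solvent values are given as a description with no test. RNA came from TBV2 cells, a mouse ESC line grown with LIF on gelatin and on feeder cells, after 24 h with 5 µM MS-275, an inhibitor of class I histone deacetylases, or with solvent. Each group held 2 libraries, a replicate 1 and a duplicate called replicate 2 here, of poly(A)-selected RNA. No label says whether they came from separate cultures, so p-values measure only the spread between these libraries. Sex, passage and the solvent itself are not given by the labels, and both groups share the same line and medium.

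The expression value used throughout is the normalized value deposited for each gene, a number with no stated formula, and a gene at 0 is given as listed at 0. Alignments of 35 bases were deposited as well. They numbered 9785619 to 23467935 per library, on 9122347 to 10973569 distinct positions, that is, distinct starts on a strand. In the files of replicate 1, 53.2% of the solvent alignments and 54.4% of the MS-275 alignments repeated a position already taken, and in those of replicate 2 none did, so distinct positions were compared. The files of the replicates may be exchanged between the kinds of data. The mitochondrial gene ND5 had values of 1.59 (solvent) and 1.41 (MS-275) in the libraries called replicate 1 and was listed at 0 in those called replicate 2, whereas mitochondrial alignments, 13431 and 13889 of them, lay in the files of replicate 2 only. Over the 10 mucin genes in both groups, the replicate with the higher value had the lower density of positions in 15 of 20 cases. An exchange within a group would not touch the comparison of groups, and values and positions are therefore compared between groups and never replicate by replicate. All 8 ESC markers examined stood at 0.289 or higher in every library, and their sum was 5.14 and 23.8 in solvent and 4.38 and 14.4 with MS-275, with 7 of 8 markers lower in the pair of replicate 1 and 8 of 8 in that of replicate 2. The summed values of 8 fibroblast markers, a possible sign of feeder cells, were 0.265 and 0.255 in solvent and 0.480 and 0.590 with MS-275. Col1a1, Col1a2, Thy1 and Lum were higher in both pairs, and Col3a1 and Dcn were lower in both. The part of either set in the results below was not tested.

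Sequences are shown for the places where transcription of Muc3 could be looked for, beside the upstream sequence of 2 other membrane mucins, Muc1 as the best represented in solvent and Muc4 as the member next after Muc3 by the difference of log2(value + 0.005), although on alignment positions the log2 difference of Muc13 (2.89) exceeded that of Muc4 (1.76). The first is the stretch of 300 bases that ends at exon 4 of Muc3, shown because the alignments began inside it (below). It lies at chr5:137619887-137620186 of mm9 on the minus strand, in intron 3. The others are the 250 bases before the RefSeq start, on GRCm38.p6, at chr5:137166047-137166296 (minus strand) for Muc3, chr3:89228806-89229055 (plus strand) for Muc1 and chr16:32735636-32735885 (plus strand) for Muc4. Capitals mark matches on either strand to the GC box, written GGGCGG, to the CCAAT box, whose letters are its name, and to the TATA box, written TATAAA.
Muc3 before exon 4: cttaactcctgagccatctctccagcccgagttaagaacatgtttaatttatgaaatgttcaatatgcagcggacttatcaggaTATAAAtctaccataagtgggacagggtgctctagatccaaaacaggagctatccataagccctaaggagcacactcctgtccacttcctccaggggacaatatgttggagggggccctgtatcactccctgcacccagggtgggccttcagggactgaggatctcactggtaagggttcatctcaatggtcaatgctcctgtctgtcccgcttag
Muc3 promoter: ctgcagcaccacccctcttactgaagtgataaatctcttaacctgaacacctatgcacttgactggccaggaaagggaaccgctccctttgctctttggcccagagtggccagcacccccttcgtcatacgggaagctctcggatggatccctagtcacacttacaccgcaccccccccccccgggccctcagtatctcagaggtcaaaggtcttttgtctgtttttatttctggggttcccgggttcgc
Muc1 promoter: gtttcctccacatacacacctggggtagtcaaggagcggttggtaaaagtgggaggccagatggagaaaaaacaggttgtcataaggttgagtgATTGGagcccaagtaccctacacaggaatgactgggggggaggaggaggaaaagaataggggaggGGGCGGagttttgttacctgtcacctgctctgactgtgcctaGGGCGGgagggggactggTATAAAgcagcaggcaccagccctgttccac
Muc4 promoter: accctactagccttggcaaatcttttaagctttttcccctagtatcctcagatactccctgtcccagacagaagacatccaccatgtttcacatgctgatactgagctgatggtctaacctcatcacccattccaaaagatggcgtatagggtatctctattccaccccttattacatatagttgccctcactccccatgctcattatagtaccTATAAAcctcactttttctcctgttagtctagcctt
The stretch before exon 4 held TATAAA on the strand printed, from 216 to 211 bases before the exon, a match present in 13.6% of 32851 RefSeq promoter windows of the same 300 bases. The RefSeq promoter of Muc3 held none of these letters, and neither did those of Muc13 and Muc20. Over windows of 250 bases, the GC box was found in 32.7%, the CCAAT box in 33.8% and the TATA box in 12.4% of all 32851 promoters. RefSeq gave an entry for 7 of the 10 members, and a match of letters is a description only.

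With MS-275, Muc3 had the highest exon density of the 10 genes, and its value stood at 31.5 and 63.2 times its solvent value in the pairs of replicate 1 and replicate 2, while the other members ranged from levels near 0 to several-fold increases at low values. Of the 10 genes, 4 (Muc3, Muc4, Muc6 and Muc13) reached 2-fold or more upward within each replicate pair when values under 0.001 were set to 0.001, and 0 did so downward. Over all 28250 genes 11.5% met the same rule upward and 2.04% downward (8.91% and 3.46% with median-ratio scaling, 6.43% and 5.53% with quantile normalization), and since the members were chosen on this contrast nothing is read from the comparison. Of the 10 genes, 7 reached 0.001 in at least 2 libraries. A library holds many cells, and more cells with Muc3 RNA or more of it per cell cannot be told apart.

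**Figure D1:**
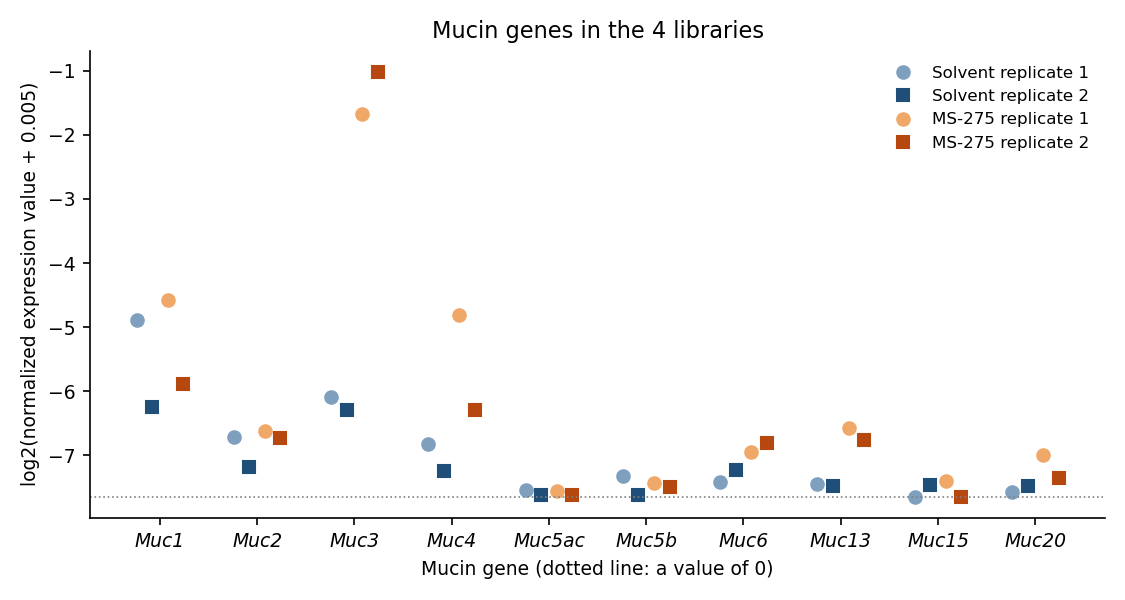
Normalized expression of the 10 mucin genes as log2(value + 0.005), 1 point per library; circles are replicate 1, squares replicate 2, blue solvent and orange 5 µM MS-275, and the dotted line marks a value of 0. Both MS-275 points of Muc3 stand far above its solvent points (log2 fold change 4.84), whereas the points of Muc1 and Muc2 overlap between groups.

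Muc3 (Entrez 666339, chromosome 5 of mm9 from 137610794 to 137625994, minus strand) encodes a membrane mucin of the intestinal brush border. Its value was 0.00975 and 0.00773 in solvent replicates 1 and 2, and 0.307 and 0.489 with MS-275. The groups did not overlap, and the lowest MS-275 value was many times the highest solvent value. On the scale of log2(value + 0.005) the difference was 4.84, with 4.40 in the pair of replicate 1 and 5.28 in the pair of replicate 2, and it ranked 3 among all 28250 genes. Distinct positions on its 1941 bases of exon numbered 19 and 13 in solvent and 567 and 523 with MS-275. Per kb of exon and per 1000000 distinct positions these densities were 0.892 and 0.684 in solvent and 32 and 24.7 with MS-275. Of the density summed over the 10 members, Muc3 held 25.5% and 16.5% in solvent and 88.4% and 81.4% with MS-275. Within exons, 95.2% of the 35-base stretches of Muc3 occur at a single place in mm9.

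Muc4 (Entrez 140474, chromosome 16 from 32735972 to 32782477) encodes a large membrane mucin that can bind the receptor ErbB2. Its value was 0.00380 and 0.00158 in solvent and 0.0307 and 0.00779 with MS-275. Both treated libraries lay above both controls. The log2 fold change was 1.49, from 2.02 in the pair of replicate 1 to 0.96 in that of replicate 2. It was 0.75 without MS-275 replicate 1 and 2.23 without MS-275 replicate 2. Exon positions numbered 13 and 16 in solvent and 28 and 76 with MS-275. The 3′ end of Muc4 overlaps that of Muc20 on the opposite strand. Distinct positions of Muc3 fell on both strands (341 plus and 377 minus in MS-275 replicate 1), so that the libraries do not mark strand. On exons that overlap no other gene, Muc4 kept 12 and 15 positions in solvent and 25 and 75 with MS-275.

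Muc13 (Entrez 17063, chromosome 16 from 33794123 to 33820020) encodes a membrane mucin of gut epithelium. Its values were 0.00073 and 0.00061 in solvent and 0.00554 and 0.00426 with MS-275. The groups were apart, at 5.54 and 4.26 times the minimum of 0.001 to which the solvent values were set, and the log2 fold change was 0.80, a size that the added 0.005 holds down at such levels. Exon positions numbered 3 and 2 in solvent and 26 and 17 with MS-275. Its introns, 22860 bases, held 23 and 4 positions in solvent and 34 and 16 with MS-275, so a large part of its alignments lay outside exons.

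Muc6 (Entrez 353328, chromosome 7 from 148819871 to 148841218) encodes a gel-forming mucin of stomach glands. Its values were 0.00084 and 0.00170 in solvent and 0.00311 and 0.00392 with MS-275, for folds of 3.11 and 2.31 and a log2 fold change of 0.44. The values did not overlap, but the exon densities did: 0.316 and 0.0828 in solvent and 0.634 and 0.307 with MS-275, since solvent replicate 1 lay just above MS-275 replicate 2. Muc6 was the member nearest above the limit of 2-fold. Just outside it stood Muc2, at 1.15 and 2.34 times, and Muc20, at 2.88 and 1.09 times.

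Muc1 (Entrez 17829, chromosome 3 from 89032979 to 89037303), a membrane mucin found on most simple epithelia, had the highest exon density of the 10 genes in both solvent libraries. Its values were 0.0288 and 0.00820 in solvent and 0.0369 and 0.0119 with MS-275. The replicates of a group were further apart than the groups, and the log2 fold change was 0.33, which turned to -0.35 without solvent replicate 2, -0.33 without MS-275 replicate 1 and -0.15 under quantile normalization. Its exon density was 1.63 and 2.87 in solvent and 1.82 and 3.55 with MS-275, again overlapping. In solvent the next member by density was Muc3 in both libraries, and with MS-275 the order of these 2 genes was reversed in both.

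Muc2 (Entrez 17831, chromosome 7 from 148876268 to 148940595) is the main gel-forming mucin of intestinal goblet cells. Its values were 0.00448 and 0.00187 in solvent and 0.00516 and 0.00438 with MS-275, which overlap, and its log2 fold change of 0.27 turned to -0.14 under quantile normalization. Exon positions numbered 16 and 13 in solvent and 19 and 25 with MS-275. Muc20 (Entrez 224116, chromosome 16 from 32777505 to 32797521), a small membrane mucin, had values of 0.00028 and 0.00058 in solvent and 0.00288 and 0.00109 with MS-275. These did not overlap, but exon positions were few, 6 and 1 in solvent and 7 and 10 with MS-275. Over all libraries its exons held 5.96 positions per kb and its introns 3.44, whereas those of Muc3 held 578 and 18.

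The remaining members stayed near the floor. Muc5ac, the main mucin of the stomach surface, had values of 0.00008 to 0.00039 over the 4 libraries, on 1 to 3 exon positions each. Muc5b, a gel-forming mucin of airway and glands, ranged from 0.00010 to 0.00123, with 2 and 2 exon positions in solvent and 5 and 10 with MS-275. Muc15, a membrane mucin, ranged from 0 to 0.0009, with 4, 1, 0 and 2 exon positions. None of these 3 genes reached 0.001 in 2 libraries, and their values overlapped between groups. The exon densities of Muc5b did not overlap (0.0122 and 0.0136 in solvent, 0.0366 and 0.0611 with MS-275), although on few positions. Its introns held 0 and 2 positions in solvent and 6 and 12 with MS-275. Muc6, Muc2, Muc5ac and Muc5b lie side by side on chromosome 7, between 148819871 and 149058990, and of their 35-base exon stretches 82.5%, 99.9%, 81.7% and 72.6% are unique in mm9. Alignments to the repeats of Muc5b in particular may be lost or shared.

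**Figure D2:**
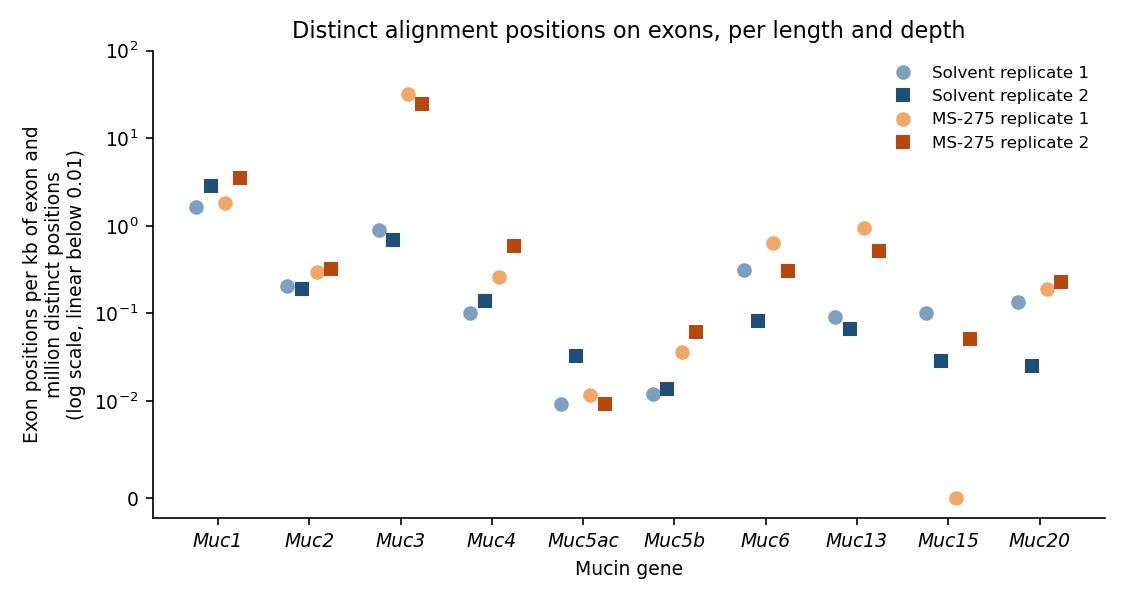
Distinct alignment positions on exons of each mucin gene, per kb of exon and 1000000 distinct positions of the library (log axis, linear below 0.01); circles are replicate 1, squares replicate 2, blue solvent and orange 5 µM MS-275. Muc3 moves from 0.892 and 0.684 to 32 and 24.7, above Muc1, whereas Muc5ac stays between 0.00965 and 0.0325.

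Where on Muc3 the alignments lay was examined next, after the data had been seen, because the rule did not use it. The annotated transcript has 12 exons. Exons 4 to 12, 1468 bases, held 18 and 13 distinct positions in solvent and 564 and 520 with MS-275. Exons 1 to 3, 381 bases, held 0 and 0 in solvent and 0 and 1 with MS-275. The split was alike in both MS-275 libraries, and each of exons 4 to 12 took part, with 11 to 231 positions in replicate 1 and 12 to 194 in replicate 2. Exon 2 has no 35-base stretch that is unique in mm9, and whether such alignments were kept is not stated, but every stretch of exons 1 and 3 is unique. These 2 exons make up 15.8% of the exon bases outside exon 2 and held 0 of 564 positions in MS-275 replicate 1, which allows a share of up to 0.532%, and 1 of 521 in replicate 2. In solvent, 0 of 18 and 0 of 13 allow up to 16.7% and 23.1%, so the depth there cannot show whether the first exons were used. These limits cover counting error only.

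The alignments did not start at exon 4 itself. The 200 bases of intron 3 just before it held 2 and 0 positions in solvent and 38 and 36 with MS-275. The outermost aligned base lay 142 bases before the exon in MS-275 replicate 1 and 140 in replicate 2, and also 142 in solvent replicate 1. From 151 to 350 bases before the exon there was no position in any library. The letters TATAAA printed above lie further out, from 216 bases before the exon. Alignments also ran unbroken over the edge between intron 3 and exon 4, with at least 5 bases on either side, at 5 and 10 positions in MS-275 replicates 1 and 2. At the corresponding edges of exons 5 to 12 there were 0 to 2. The rest of intron 3 with introns 1 and 2, 5527 bases, held 0 and 1 positions in solvent and 4 and 2 with MS-275, and introns 4 to 11, 7623 bases, 7 and 1 in solvent and 112 and 42 with MS-275. Intron positions thus also fell mainly behind exon 4, at 14.7 and 5.51 per kb with MS-275 against 0.724 and 0.362 before the 200 bases.

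**Figure D3:**
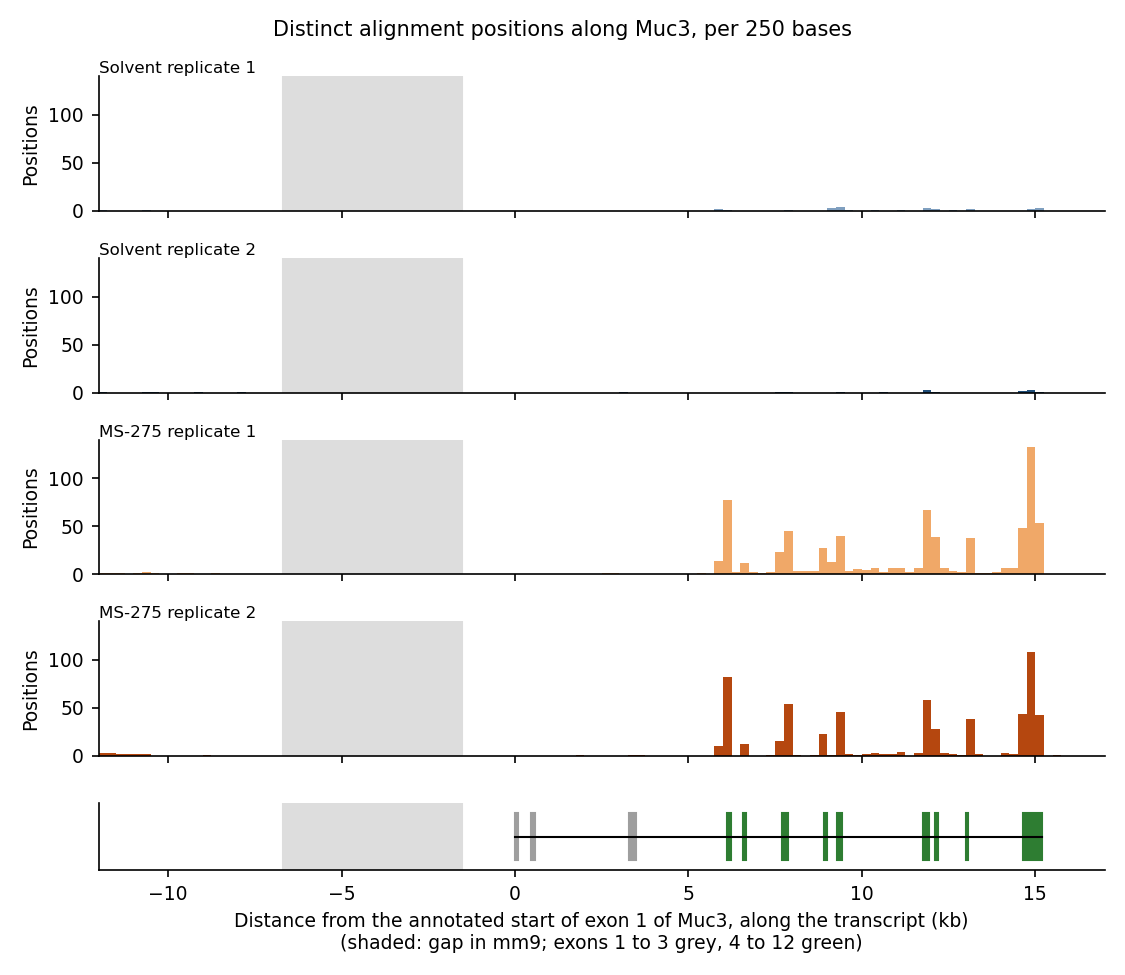
Distinct alignment positions per 250 bases along Muc3 in each library, against the distance from the annotated start of exon 1 in the direction of the transcript; the lowest strip shows the exons, 1 to 3 in grey and 4 to 12 in green, and shading marks a gap in mm9. With MS-275 positions stand over exons 4 to 12 (564 and 520) and are nearly absent over exons 1 to 3 (0 and 1).

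**Figure D4:**
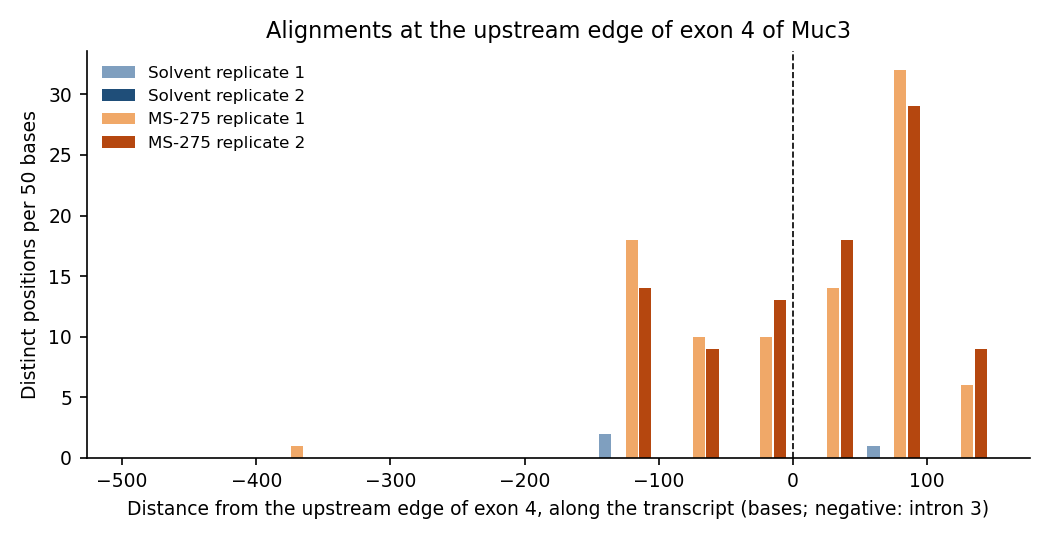
Distinct alignment positions per 50 bases around the upstream edge of exon 4 of Muc3 (dashed line), 4 bars side by side for the libraries in each bin, with intron 3 at negative distances. Positions with MS-275 fill the 150 bases before the exon and none lie from 151 to 350 bases before it.

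What lies before exon 1 could be followed only in part. Distinct positions were 0 in all 4 libraries over the 1513 bases between exon 1 and a gap of 5164 bases in mm9. Over the 10437 bases beyond that gap they were 2 and 5 in solvent and 12 and 18 with MS-275. Of 10 pieces of 30 bases cut from the RefSeq promoter window of Muc3, 0 occur in mm9, so the RefSeq start was not examined on these alignments. The annotated exons 1 to 3 belong to the older gene model. Whether the transcript seen here begins at exon 4, or joins exons beyond the gap or absent from mm9, was not tested.

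The genes whose values over the 4 libraries came nearest to those of Muc3, by the root mean square difference of log2(value + 0.005), were AU015228 (0.57), Zcchc12 (0.58), Kctd12 (0.64), Cd74 (0.72) and Gpha2 (0.77). Cd74 encodes the invariant chain of antigen presentation. AU015228 had values of 0.00465 and 0.0107 in solvent and 0.185 and 0.324 with MS-275. After centring each gene on its own mean, the nearest were Oas1e (0.19), Cypt3 (0.20), Spz1 (0.25), AU015228 (0.41) and LOC100504448 (0.41). Oas1e, of the oligoadenylate synthetase family, had values of 0 and 0.001 in solvent and 0.104 and 0.178 with MS-275. No other mucin gene was among either 5.

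Lists of genes around the mucins were compared next. They are not members, and for them each count is given without and with the replicate as a block, because the block changed the counts. Without the block, limma at an adjusted p of 0.05 called 0.00492% of 20336 genes, which is 1 gene higher and 0 lower. That gene was a member, on whose contrast the choice of members rests, so the call is no result, and none passed with another pseudocount or scaling. With a mean value of at least 0.01, 466 genes were higher and 65 lower of 14740. At a raw p under 0.05 without the block, 14.6% of all genes were up and 2.77% down, against which the raw counts of each list below are to be read. With the block 21% were higher and 6.46% lower, a split that became 16.5% and 14% with median-ratio scaling and 13.4% and 12.7% with quantile normalization. Limma-voom on counts of distinct positions called 16.9% of 15263 genes higher and 5.8% lower without a block. The filter on values and the filter on positions can each be met by the libraries of a group alone. The direction of such a gene is then fixed in advance, and nothing is read from its part in the counts and medians below. With the block and no filter on low values, 0 of 28250 genes passed, while 3897 were up and 1305 down at a raw p under 0.05, so the calls with the block below rest on the filter. The ranges of p with the block given below are over the 3 alternatives that kept a filter, those without it over the 11 or 12 alternatives without a block. The median log2 fold change over all genes tested was 0.20, which median-ratio scaling moved to -0.01, so small positive changes are close to the general shift.

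**Figure D5:**
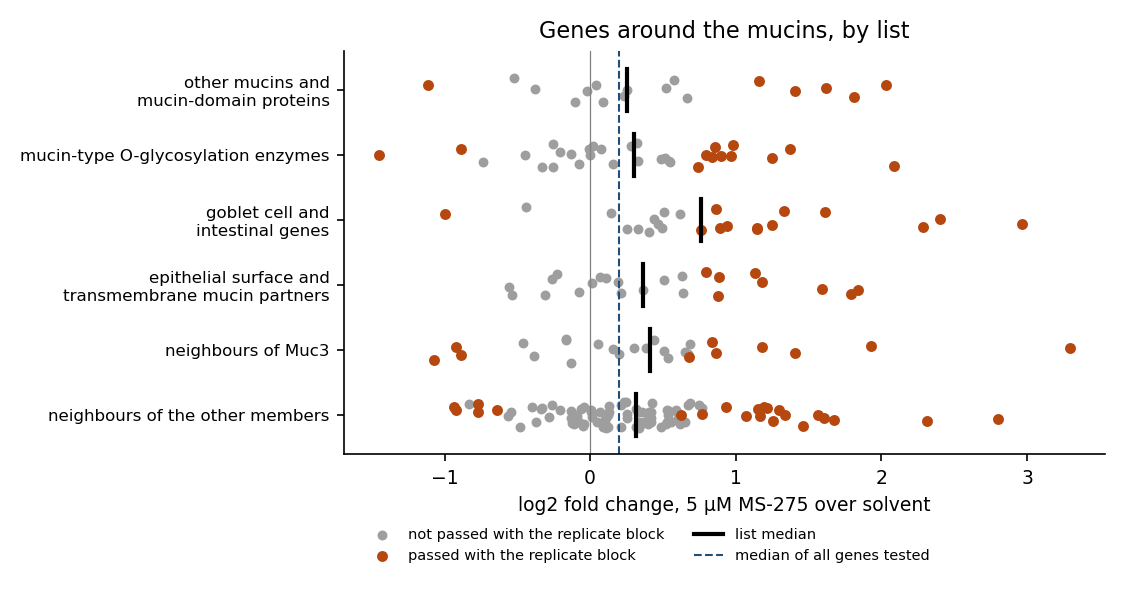
Log2 fold change, 5 µM MS-275 over solvent, of each tested gene in the 6 lists; orange points passed an adjusted p of 0.05 in limma with the replicate block, grey points did not, black bars are list medians and the dashed line is the median of all genes tested (0.20). The goblet cell and intestinal genes have the highest list median (0.76), which includes genes that passed the filter only through the MS-275 libraries.

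Genes of goblet cells and intestine had the highest median of the lists, 0.76 over 23 tested genes, some of them tested only through their MS-275 values (below). It was 1.45 and 0.27 with pseudocounts of 0.001 and 0.02, where all genes had 0.25 and 0.11. With a pseudocount of 0.02 the epithelial genes had the higher median (0.29). Under quantile normalization the median was 0.35, against -0.03 over all genes. None passed without the block, with 12 up and 0 down at a raw p under 0.05, and 12 were higher and 1 lower with it. Of those higher, Tff3, Zg16, Reg4, Ern2 and Cdx2 reached 0.001 only in the MS-275 libraries. So did Tff2 (0 and 0 in solvent, 0.00196 and 0.00214 with MS-275), which was tested and did not pass with the block. All of these passed the filter through that group alone, so their direction was fixed in advance and nothing is read from their calls. They could only raise the list median and the count up at a raw p under 0.05, so nothing is read from those either. Counts of positions with limma-voom and no block gave 5 higher and 1 lower of 13. Ern2, at 0.00035 and 0.00029 in solvent, was among those tested, so the same limit holds there. Cdx1, a homeobox factor of intestinal identity, had values of 0.0214 and 0.00963 in solvent and 0.184 and 0.120 with MS-275 (log2 fold change 2.96, SE 0.27 with the block). Its adjusted p was 0.0587 without the block (0.00367 to 0.255 over the alternatives) and 2.7e-06 with it (1.9e-08 to 2.4e-05). Krt20, a keratin of mature enterocytes and goblet cells, differed by 2.40 (SE 0.35) and Clca3, listed under an older symbol of the goblet cell product now called Clca1, by 2.28 (SE 0.32), and both passed with the block. Hnf4a, a factor of gut and liver, passed downward at -0.99 (SE 0.31), and Klf4 at -0.44 did not pass. In the 3 other fits with the block and a filter, the adjusted p of Klf4 ranged from 0.0203 to 0.111. All 7 goblet cell markers (Agr2, Tff3, Clca3, Fcgbp, Zg16, Spdef and Atoh1) were higher with MS-275 in both pairs. For each, both MS-275 values lay above both solvent values, which held for 26.1% of all 28250 genes. The markers also belong to the list above, and Agr2, Tff3 and Zg16 were under 0.001 in both solvent libraries, so nothing is read from this count. Their values were still 0.0525 at most, against 0.289 at least for the ESC markers. They summed to 0.00828 and 0.0120 in solvent and 0.0998 and 0.0693 with MS-275. Agr2, a defining marker and the lowest of them with MS-275, was at 0 in solvent and at 0.00118 and 0.00083 with MS-275. Among 6 enterocyte markers the sums were 0.0739 and 0.0692 in solvent and 0.113 and 0.0875 with MS-275. Alpi, Vil1, Cdh17 and Sis were higher with MS-275 in both pairs. Alpi was at 0 in solvent and at 0.00644 and 0.00702 with MS-275. The groups overlapped for Vil1 (0.0279 and 0.00971, then 0.0470 and 0.0269). Fabp2 was at 0.00317 and 0 in solvent and 0 and 0.00155 with MS-275. Lct also overlapped between groups (0.0388 and 0.0565, then 0.0535 and 0.0445).

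Enzymes of mucin-type O-glycosylation add the first sugar to serine or threonine and then extend, branch or cap the chain. Of 32 tested, none passed without the block (7 up and 1 down at a raw p under 0.05), and 10 were higher and 2 lower with it. Of those higher, St6galnac1 reached 0.001 only in the MS-275 libraries, so its direction was fixed by the filter. Limma-voom on positions without a block gave 9 higher and 1 lower of 27, with St6galnac1 (0 and 0 in solvent) among those tested. The list median was 0.30, close to that of all genes. B3gnt3, which extends the core chain, had values of 0.00301 and 0.00156 in solvent and 0.0291 and 0.0227 with MS-275 (log2 fold change 2.09, SE 0.29 with the block, adjusted p = 9.7e-05 with it and 0.0772 without). Over the alternatives these were 3.1e-06 to 0.00192 and 0.00561 to 0.509. Galnt3 (1.37, SE 0.31) and Galntl4, the listed symbol of Galnt18 (1.25, SE 0.29), 2 members of the family that adds the first sugar, passed higher with the block, although Galntl4 lost the call in 1 of the 3 other fits with the block and a filter (highest adjusted p 0.0602). Galnt7 of the same family passed lower, with values of 0.0866 and 0.0564 in solvent and 0.0357 and 0.0135 with MS-275 (-1.45, SE 0.29), as did the sialyltransferase St6galnac2 (-0.88, SE 0.28).

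Other mucins and mucin-domain proteins carry the same kind of sugar-rich stretch on other backbones. Muc16, a very large membrane mucin, was listed at 0 in all 4 libraries. Of 17 tested, none passed without the block (5 up and 0 down at a raw p under 0.05), and 5 were higher and 1 lower with it, with 6 and 0 of 14 in limma-voom on positions without a block. The median was 0.25. Podxl2, a sialomucin related to Cd34, had values of 0.0133 and 0.00972 in solvent and 0.0770 and 0.0499 with MS-275 (2.03, SE 0.30 with the block, adjusted p = 0.00015 with it and 0.128 without). Over the alternatives these were 8.0e-07 to 0.00213 and 0.00511 to 0.565. Cx3cl1, a chemokine on a mucin stalk, differed by 1.81 (SE 0.31) and Cd34 by 1.62 (SE 0.27), both passing with the block. Cxcl16, another chemokine on a mucin stalk, passed lower (-1.11, SE 0.29), and Madcam1, a vascular addressin, at -0.53 did not pass. In the 3 other fits with the block and a filter, the adjusted p of Madcam1 ranged from 0.0292 to 0.155.

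Epithelial surface genes and partners of membrane mucins gave 0 calls among 23 without the block (5 up and 0 down at a raw p under 0.05), and 8 higher and 0 lower with it. Limma-voom on positions without a block gave 6 higher and 0 lower. The median was 0.37. Krt18, a keratin of simple epithelia, had values of 0.0394 and 0.0332 in solvent and 0.156 and 0.130 with MS-275 (1.84, SE 0.24 with the block, adjusted p = 6.4e-05 with it and 0.0786 without). Over the alternatives these were 6.9e-06 to 0.00040 and 0.00848 to 0.338. Slc9a3r1, a scaffold under the apical membrane, differed by 1.79 (SE 0.24) and Cldn6, a tight junction protein, by 1.59 (SE 0.22), both passing with the block. Cldn4 at -0.54 (SE 0.22) and Krt7 at -0.56 (SE 0.32) did not pass with the block, but Cldn4 passed lower in all 3 other fits with the block and a filter (adjusted p 0.00692 to 0.0251), and the p of Krt7 there ranged from 0.0390 to 0.0787. Erbb2, named after its values were seen because its product binds Muc4, passed with the block (1.18, SE 0.31), but its positions gave -0.44 with an adjusted p of 0.140 in limma-voom with the block.

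Neighbours of Muc3 within 500 kb numbered 26, all tested. None passed without the block (3 up and 1 down at a raw p under 0.05), and 7 were higher and 3 lower with it, which median-ratio scaling with the block changed to 4 and 5. Limma-voom on positions without a block gave 4 higher and 3 lower of 25. Ache, the acetylcholinesterase gene, was the nearest tested gene beyond the 5′ end of Muc3, at 103 kb, and at 0.51 (SE 0.23) did not pass with the block, whereas its positions gave 1.71 with an adjusted p of 0.0206 in limma-voom with the block. The largest change was that of Myl10, a myosin light chain gene 434 kb away, with values of 0 and 0.00140 in solvent and 0.0345 and 0.0731 with MS-275 (3.30, SE 0.31). Vgf, a neuropeptide precursor, passed at 1.41 (SE 0.28). Also higher with the block were Trfr2 (1.18), Rabl5 (0.87), Ufsp1 (0.84) and Pop7 (0.68), and those that passed lower were Plod3 (-1.07), 4933404O12Rik (-0.92) and Gigyf1 (-0.89).

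Around the other 9 members lay 112 genes, of which 97 were tested. None passed without the block (11 up and 0 down at a raw p under 0.05), and 17 were higher and 5 lower with it. Limma-voom on positions without a block gave 13 higher and 3 lower of 92. The median of 0.31 lay near that of all genes. Cend1, a regulator of neuronal precursors, differed by 2.80 (SE 0.31 with the block), the potassium channel gene Kcnn3 by 2.31 (SE 0.31) and the secretin gene Sct by 1.68 (SE 0.32), and all of these passed with the block. Ano3 (-0.93, SE 0.30) and the transcription factor gene Deaf1 (-0.92, SE 0.25) passed lower.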

How the data were processed

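RNA-seq of 4 libraries of TBV2 ESCs (2 with solvent, 2 with 5 µM MS-275, 24 h) was analysed. Reads of an Illumina Genome Analyzer IIx were mapped to mm9, per the labels, and the authors deposited a normalized signal per gene, made with Genomatix, whose formula is not given in the sources used here. They also deposited the alignments, with the aligner and filters not given in the sources used here. The authors' ratio tables hold their own comparison and were not used. The mucin genes, gene lists and tests were chosen with earlier results of these data known.

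Group differences are of log2(value + 0.005). Genes reaching 0.001 in at least 2 libraries were fitted with limma 3.58.1 (R 4.3.3, lmFit and eBayes with trend), with Benjamini-Hochberg adjustment over all genes tested (threshold 0.05). The methods name no test. Replicate numbers were taken as pairs because the authors' headers call replicate 1 of both conditions old; deviations from the group means correlated at 0.76 between same-numbered libraries over 20336 genes. The block adds the replicate number as a term. Alignments, counted by their midpoint, were assigned to GENCODE M1 genes on mm9, matched for 22155 of 28250 genes. Distinct positions on genes with at least 10 positions in at least 2 libraries were tested with limma-voom. Promoters came from RefSeq (GRCm38.p6), and uniqueness of 35-base stretches from a search of mm9, both strands, with Python 3.11.15. The fit was tested on simulated data.

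Genes were named by rule: all members, from each list the 3 tested genes with the largest and the 2 with the lowest log2 fold change, the nearest tested neighbour of Muc3 on each side and its called neighbours, and the 5 genes nearest to Muc3 in either of 2 measures. Fixed lists held 24 other mucins (21 matched), 37 O-glycosylation enzymes (35), 27 goblet and intestinal genes (26) and 23 epithelial genes (23); Muc19, Mucl1, Ovgp1, C1galt1c1, St6galnac4 and Tff1 were not analysed here. The values of 1 named gene are not reported here. Alternatives were another pseudocount, filter, scaling or minimum fold, each library left out, the replicate block, no trend, and limma-voom; combinations of the block with a scaling or with no filter were added after seeing the data.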

Additional observations from a re-analysis of the deposited data

How the results depend on the processing

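The count of members at least 2-fold higher in both pairs fell from 4 to 1 (Muc3) when values under 0.01 were set to 0.01, where 4.47% of all genes met the rule. It was 3 with a minimum of 3-fold (6.42% of all genes) and under median-ratio scaling (8.91%) or quantile normalization (6.43%). With any library left out it was 4 (9.53% to 15.7% of all genes), and Muc3, Muc4 and Muc13 were always among them. Muc6 gave way to Muc2 without solvent replicate 1 and to Muc20 without MS-275 replicate 2. The log2 fold change of Muc3, 4.84, was 5.33 and 3.83 with pseudocounts of 0.001 and 0.02, 4.46 after quantile normalization and 4.51 to 5.17 with a library left out. Counted on every alignment, the log2 ratio of its exon positions was 5.76. Under quantile normalization the log2 fold changes of Muc2 (-0.14), Muc1 (-0.15), Muc5b (-0.18) and Muc15 (-0.13) turned negative. With a library left out, Muc1 ranged from -0.35 to 1.01, Muc2 from 0.04 to 0.51, Muc4 from 0.75 to 2.23 and Muc20 from 0.17 to 0.54, and Muc5ac, Muc5b and Muc15 changed sign. The counts of list genes passing in limma, 0 without a block, stayed at 0 under both pseudocounts, both scalings, no filter and no trend. With a mean value of at least 0.01 they were 0 for other mucins, 1 for O-glycosylation enzymes, 3 for goblet and intestinal genes, 2 for epithelial genes, 2 for neighbours of Muc3 and 2 for neighbours of the other members, where 3.16% of all genes were higher and 0.441% lower. In the same order they were 6, 12, 13, 8, 10 and 22 with the replicate block, 6, 10, 6, 6, 7 and 16 in limma-voom on positions, 8, 15, 8, 11, 14 and 37 in limma-voom with the block (all genes 31.4% higher and 14.3% lower), 6, 11, 13, 7, 9 and 25 with median-ratio scaling and the block (16.5% and 14%), and 8, 9, 9, 8, 8 and 23 with quantile normalization and the block (13.4% and 12.7%). With the block and no filter all 6 counts were 0. With a library left out they ranged from 0 to 0, 0 to 1, 0 to 2, 0 to 1, 0 to 2 and 0 to 2, the lone library of a group being assumed to vary like the others. The combinations of the block with a scaling or with no filter were chosen after seeing the data. The causes of these differences were not tested. With 2 libraries a group and few positions on most members, depth limits every member except Muc1, and Muc3 with MS-275, to coarse values. In solvent Muc3 had 19 and 13 exon positions, so the size of its fold is coarse as well.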
